A study of Mus musculus with 27 samples.

Results

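A network of opposing transcription factors holds activated B cells in their B cell state or lets them become antibody-secreting plasma cells, and 10 genes of that network were followed here: Prdm1, Irf4, Irf8, Pax5, Bcl6, Bach2, Ebf1, Spib, Pou2af1 and Ikzf1. They were selected by gene name from the 54532 genes of the count tables, and all 10 had enough counts to be tested in every comparison. Pax5, Ebf1 and Ikzf1 hold cells in the B lineage, Bcl6 and Bach2 restrain differentiation, and Prdm1, which encodes Blimp-1, represses the B cell programme when plasma cells form. Irf4 acts on both sides of that switch, Irf8 and Spib are active in B cells before it, and Pou2af1 encodes a coactivator of the octamer factors rather than a DNA-binding factor of its own.

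The study asked how disulfiram (DSF), an aldehyde dehydrogenase inhibitor used against alcohol dependence, alters gene expression in B cells that are being stimulated. B cells were taken by negative selection from spleens of wild-type C57BL6 mice and cultured for 3 h. In the first experiment, 5 groups of 4 libraries each were sequenced: unstimulated cells, cells given LPS as a T-independent stimulus, cells given IL-4+anti-CD40 as a T-dependent stimulus, and cells given either stimulus with 1 μM DSF. The second experiment had 1 library per condition, 7 in all, and added 1 μM ibrutinib, an inhibitor of Bruton's tyrosine kinase, under both stimuli. Cells without an inhibitor were given DMSO, the vehicle. The study calls the 4 libraries of a group biologically independent, and the labels do not tie them to separate mice or cultures, so p-values measure the spread between these libraries. Fewer cells of a type and less RNA per cell cannot be told apart in such bulk samples.

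Total counts per library lay between 17804851 and 23632992 in the first experiment and between 16049295 and 24619776 in the second. The 3 B cell markers used (Cd79a, Cd79b, Ms4a1) were abundant in every library, with a summed level of 728 to 2440 FPKM (fragments per gene, scaled for transcript length and library size). The 5 T cell markers summed to at most 6.01 FPKM, the 4 NK cell markers to at most 1.59 and the 4 plasmacytoid dendritic cell markers, which label cells that also express Irf8 and Spib, to at most 9.28. The 4 dendritic cell markers summed to at most 11 FPKM. Myeloid markers were higher in unstimulated cells, at 315 to 439 FPKM, than in the other groups, at 71.4 to 158 FPKM, and most of this was Lyz2. Sdc1, which encodes the plasma cell marker CD138, stayed between 0.795 and 14.9 FPKM, and Tnfrsf17, which encodes the plasma cell receptor BCMA, did not exceed 0.943 FPKM. The part of these other cell types in the results below was not tested.

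The unstimulated libraries of the first experiment fell into 2 pairs. Replicates 1 and 2 differed from each other by a root mean square of 0.151 on the log2 scale over 10042 genes, and replicates 3 and 4 by 0.189, but libraries of different pairs differed by 0.711 to 0.713. Neutrophil markers summed to 61.5 and 59.5 FPKM in replicates 1 and 2 against 12 and 17.5 FPKM in replicates 3 and 4, and erythroid markers to 3.24 and 1.58 against 13.2 and 14.1 FPKM. The members took part in the split: Prdm1 stood at 4.02 and 4.77 FPKM in replicates 1 and 2 and at 1.11 and 1.15 FPKM in replicates 3 and 4. Comparisons of the members with unstimulated cells are therefore given with all 4 libraries and, where a call, a direction or a value depended on it, against each pair alone. A weaker split of the same kind was present in IL-4+anti-CD40-stimulated cells without DSF, where differences were 0.194 and 0.225 within the pairs and 0.317 to 0.448 between them.

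**Figure D1:**
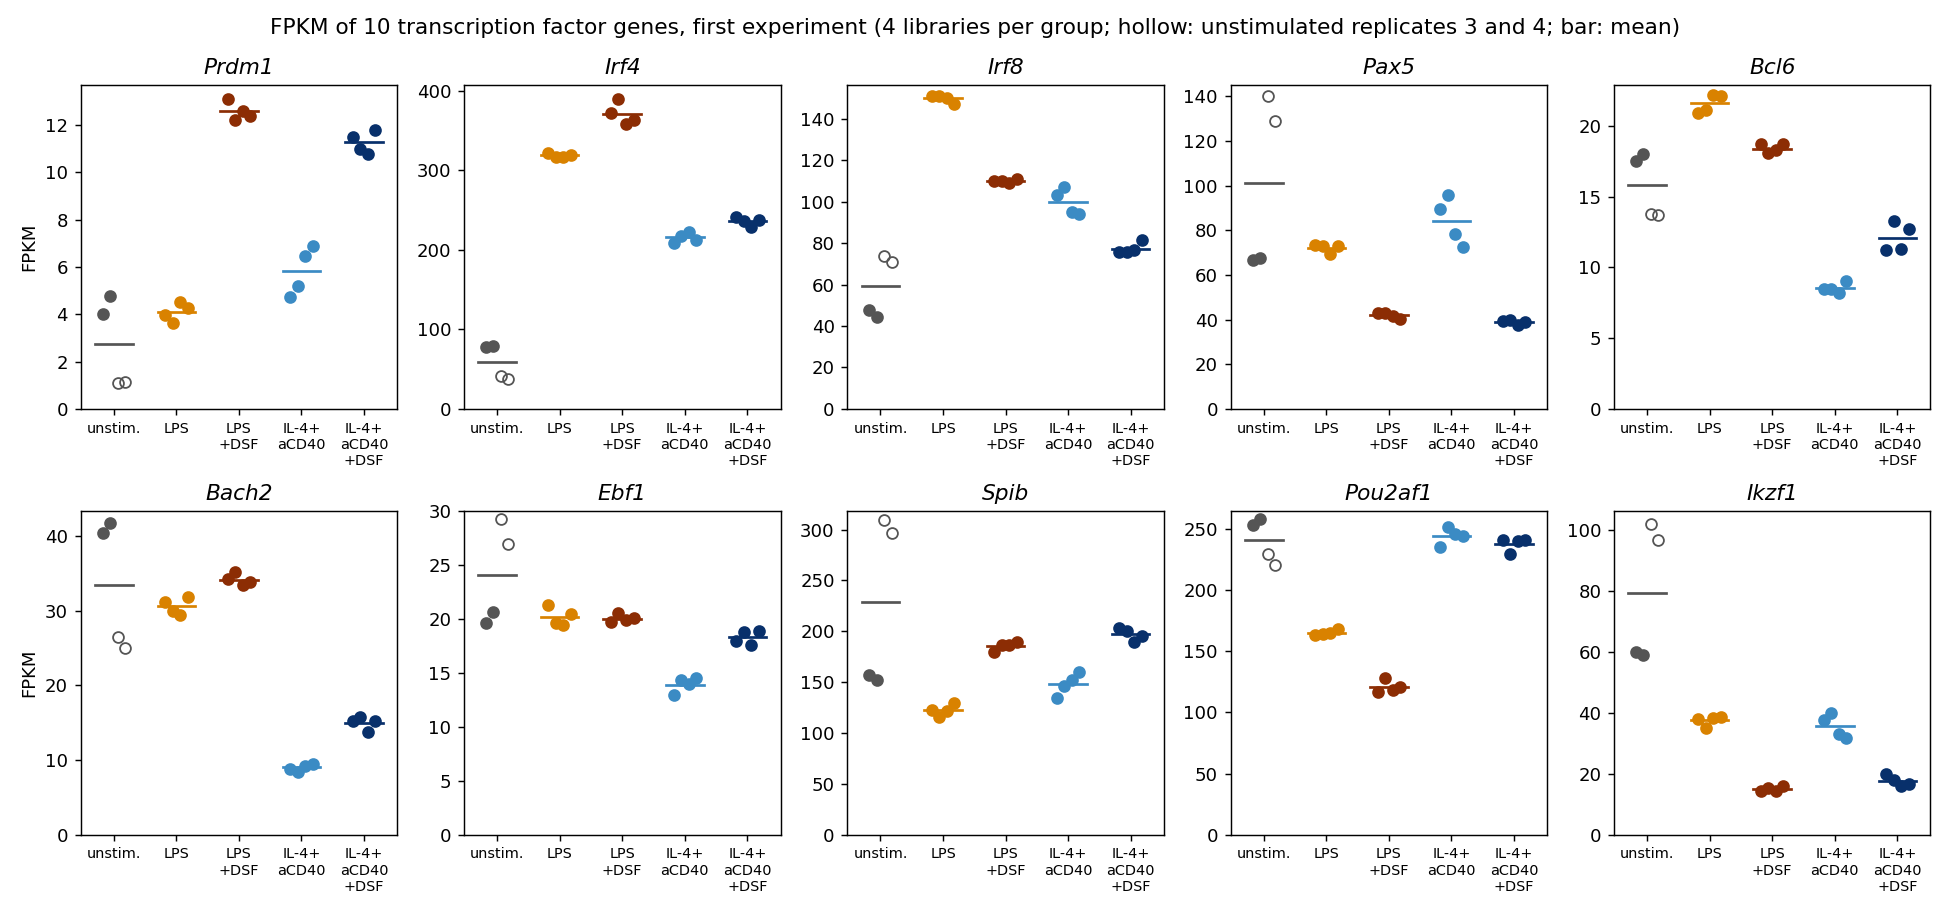
FPKM of each of the 10 genes (vertical axes, starting at 0) in the 5 groups of the first experiment, 1 point per library and a bar at the group mean; hollow points are unstimulated replicates 3 and 4. Irf4 rose from 38 to 79.5 FPKM in unstimulated cells to 317 to 322 FPKM with LPS, Prdm1 was highest in the 2 groups given DSF, and the unstimulated points fall into 2 pairs for all 10 genes.

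Among all 18315 genes with a mean over 0.1 FPKM, the members ranged from the 67.3rd percentile (Prdm1, mean 7.32 FPKM over the 20 libraries) to the 99.1st (Irf4, 240 FPKM). Pou2af1 (202 FPKM) and Spib (176 FPKM) followed Irf4, then Irf8 (99.1 FPKM), Pax5 (67.6 FPKM), Ikzf1 (37 FPKM), Bach2 (24.4 FPKM), Ebf1 (19.3 FPKM) and Bcl6 (15.3 FPKM). Irf4 varied most between groups, its highest group mean being 6.28 times its lowest. Ikzf1 followed with 5.29 times and Prdm1 with 4.57 times, while Ebf1 varied least with 1.73 times. The order of the first 3 rests on the mean of all 4 unstimulated libraries: against replicates 3 and 4 alone, LPS with DSF gave an 11.1-fold difference for Prdm1, 9.33-fold for Irf4 and 6.68-fold for Ikzf1, and against replicates 1 and 2 alone 2.81-fold, 4.64-fold and 4.05-fold.

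Promoter windows of 4 members are shown because they are those of the 10 genes that held a match to a motif searched. All 10 genes, with or without a match, were called with DSF under at least 1 stimulus. The share of all genes called under at least 1 stimulus was not determined. Under LPS alone, 35.1% of all genes tested were called higher with DSF and 36% lower. RefSeq (GRCm38.p6) gave 14 windows for the 10 genes, each from 250 bases before to 50 bases after a transcription start. Both strands were searched for ATGCAAAT (octamer), TGANTCA (AP-1), TGACGTCA (CRE) and 4 gapped motifs. These were the composite element of Ets and interferon regulatory factors such as Spi-B and IRF4, the interferon-stimulated response element, the κB motif and the STAT6 motif. The Ets-IRF and interferon-stimulated response elements can overlap. The Ets-IRF composite element occurred in 2.72% of 32851 promoter windows of this length and in windows of Bcl6 and Bach2. The AP-1 motif as searched, which accepts any base at its centre, occurred in 7.81% of windows and in that of Prdm1. The Prdm1 match had A as its central base, and whether it is an AP-1 site was not tested. The interferon-stimulated response element occurred in 3.44% of windows and in 1 window of Ebf1. The other 4 motifs were in no window of a member, against 1.63% (κB), 1.74% (octamer), 6.95% (STAT6) and 1.79% (CRE) of all windows. In the following lines, which run 5′ to 3′ on the gene's strand, capitals mark the match.
Prdm1, minus strand, chr10:44458699-44458998, inside the annotated gene: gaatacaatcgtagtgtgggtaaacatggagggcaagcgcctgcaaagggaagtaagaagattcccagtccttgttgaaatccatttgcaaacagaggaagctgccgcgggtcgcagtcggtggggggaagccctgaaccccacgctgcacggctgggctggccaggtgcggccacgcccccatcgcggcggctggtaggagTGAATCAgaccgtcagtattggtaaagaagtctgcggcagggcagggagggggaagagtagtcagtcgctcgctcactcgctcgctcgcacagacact
Bcl6, minus strand, chr16:23981234-23981533, the window of a start inside the annotated gene: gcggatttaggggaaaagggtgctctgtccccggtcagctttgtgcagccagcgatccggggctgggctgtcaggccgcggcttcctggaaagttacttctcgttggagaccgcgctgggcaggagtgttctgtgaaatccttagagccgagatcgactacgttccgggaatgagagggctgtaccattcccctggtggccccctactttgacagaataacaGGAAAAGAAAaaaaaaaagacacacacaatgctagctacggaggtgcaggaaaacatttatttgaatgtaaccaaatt
Bach2, plus strand, chr4:32417185-32417484, the window of a start inside the annotated gene: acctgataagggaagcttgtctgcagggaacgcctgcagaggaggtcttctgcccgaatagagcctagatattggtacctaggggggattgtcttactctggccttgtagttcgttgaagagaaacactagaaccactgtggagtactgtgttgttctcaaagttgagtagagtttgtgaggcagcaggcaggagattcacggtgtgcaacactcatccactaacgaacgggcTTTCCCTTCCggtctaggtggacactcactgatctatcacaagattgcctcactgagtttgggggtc
Ebf1, plus strand, chr11:44617850-44618149, the window of a start inside the annotated gene: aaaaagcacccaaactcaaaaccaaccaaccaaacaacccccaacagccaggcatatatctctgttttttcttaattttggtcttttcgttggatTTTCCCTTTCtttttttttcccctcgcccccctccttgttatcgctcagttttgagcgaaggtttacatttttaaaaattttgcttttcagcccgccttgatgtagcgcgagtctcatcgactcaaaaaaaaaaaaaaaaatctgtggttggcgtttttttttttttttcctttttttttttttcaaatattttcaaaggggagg
Counted from the start site, the match in Prdm1 was at position -48, that in Bcl6 at -28, that in Bach2 at -17 and that in Ebf1 at -155. No binding was measured in this series, so the matches describe the letters only.

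LPS raised Irf4 and Irf8 and lowered Ikzf1, Spib and Pou2af1. Irf4 rose 5.47-fold (log2 fold change 2.45 ± 0.25 SE, adjusted p = 4.25e-05, edgeR, 4 against 4 libraries), Irf8 rose 2.54-fold and Bcl6 1.39-fold, a call lost with total counts as the only scaling (adjusted p = 0.0811). Ikzf1 fell 2.11-fold, Spib 1.85-fold and Pou2af1 1.44-fold. The 3 higher members compare with 29.6% of the 14477 genes tested that were called higher, and the 3 lower members with 33.3% called lower, a gene being called at a Benjamini-Hochberg adjusted p under 0.05. All 6 kept their direction and their call against either pair of unstimulated libraries. The other 4 members depended on the pair. Prdm1 was 3.69-fold higher with LPS than in replicates 3 and 4 (adjusted p = 2.09e-12) but differed by -0.08 on the log2 scale from replicates 1 and 2 (adjusted p = 0.48). Pax5 was lower than in replicates 3 and 4 (log2 fold change -0.87) and higher than in replicates 1 and 2 (0.13, adjusted p = 0.00861), and Bach2 went from 0.28 to -0.40 between the same choices. Ebf1 had a log2 fold change of -0.44 against replicates 3 and 4 and of 0.03 against replicates 1 and 2.

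With IL-4+anti-CD40, Irf4 rose 3.72-fold and Irf8 1.71-fold, and the repressors Bach2 and Bcl6 fell together. Bach2 fell 3.64-fold (log2 fold change -1.86 ± 0.17 SE, adjusted p = 2.4e-05), Ikzf1 2.21-fold, Bcl6 1.81-fold and Ebf1 1.71-fold. Among the 14433 genes tested, 30.4% were called higher, against 2 members, and 32.1% were called lower, against 4 members. These 6 calls kept their direction and side of the threshold against either pair of unstimulated libraries. Prdm1 was 5.24-fold higher than in replicates 3 and 4 (adjusted p = 3.67e-06) and had a log2 fold change of 0.41 against replicates 1 and 2 (adjusted p = 0.0567). Pax5 reversed again, from -0.65 against replicates 3 and 4 to 0.33 against replicates 1 and 2, and Spib went from -1.01 to -0.05.

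**Figure D2:**
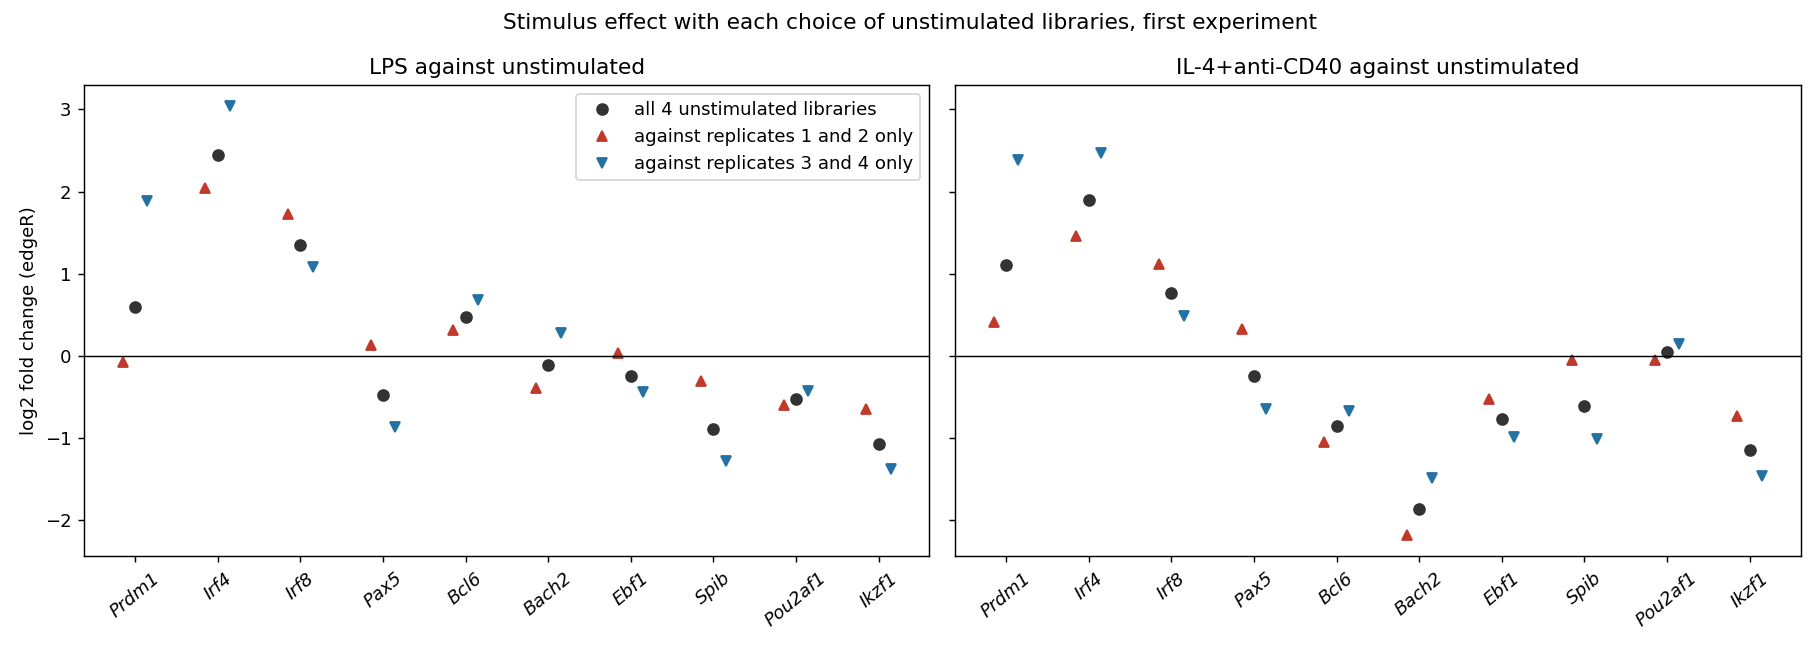
Log2 fold change (edgeR, vertical axis) of each member with LPS (left) and with IL-4+anti-CD40 (right) against all 4 unstimulated libraries, against replicates 1 and 2, or against replicates 3 and 4. Irf4 lies at 1.46 or higher under every choice, while the points of Pax5 lie on both sides of 0 under both stimuli.

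The stimuli were then set directly against each other, which uses no unstimulated library. Bach2 was 3.52-fold lower with IL-4+anti-CD40 than with LPS (log2 fold change -1.81 ± 0.06 SE, adjusted p = 5.44e-10), Bcl6 2.61-fold lower, Irf8 1.55-fold lower, Irf4 1.53-fold lower and Ebf1 1.5-fold lower. Pou2af1 was 1.43-fold higher, Prdm1 1.38-fold higher and Spib 1.17-fold higher. In all, 8 members were called, against 39.7% of the 14078 genes tested. Pax5 (log2 fold change 0.17) and Ikzf1 (-0.12) were not called. Pax5 passed the threshold against LPS when IL-4+anti-CD40 replicates 3 and 4 were left out (0.30, adjusted p = 6.4e-06), and Ikzf1 passed it when replicates 1 and 2 were left out (-0.24, adjusted p = 0.00148).

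Irf4 and Irf8 encode interferon regulatory factors of the same family (Irf4 at chr13:30749226-30766976, plus strand, and Irf8 at chr8:120736358-120756694, plus strand, both mm10). Irf4 stood at 77.7, 79.5, 41.2 and 38 FPKM in unstimulated cells, at 322, 317, 317 and 319 FPKM with LPS and at 209, 217, 223 and 213 FPKM with IL-4+anti-CD40. The unstimulated libraries lay below all stimulated ones, and the LPS libraries above all IL-4+anti-CD40 libraries. Irf8 stood at 47.7, 44.5, 73.9 and 70.8 FPKM in unstimulated cells, at 151, 151, 150 and 147 FPKM with LPS, and at 103, 107, 94.8 and 94 FPKM with IL-4+anti-CD40. DSF moved these relatives apart under LPS in the first experiment. In the second experiment, both were lower with DSF under LPS (log2 ratios -0.58 and -1.24). With LPS and DSF in the first experiment, Irf4 was at 372, 390, 359 and 364 FPKM and Irf8 at 110, 110, 109 and 111 FPKM. Irf4 thus lay above every LPS library (1.18-fold higher, log2 fold change 0.24 ± 0.04 SE, adjusted p = 7.93e-06) and Irf8 below every LPS library (1.34-fold lower, log2 fold change -0.43 ± 0.04 SE, adjusted p = 2.4e-10). The small rise of Irf4 was 0.03 with total counts as the only scaling (adjusted p = 0.475). Under IL-4+anti-CD40, DSF lowered Irf8 1.31-fold, to 75.5, 75.6, 76.8 and 81.6 FPKM, and Irf4 differed by 0.11 on the log2 scale (adjusted p = 0.066), at 241, 236, 229 and 238 FPKM.

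DSF changed 9 of the 10 members under LPS. Prdm1, Spib, Irf4 and Bach2 rose, while Ikzf1, Pax5, Pou2af1, Irf8 and Bcl6 fell. Among all 14154 genes tested, 35.1% were called higher and 36% lower, so 4 and 5 members are near what the whole table shows, and the members are described one by one for that reason. Under IL-4+anti-CD40, 5 members were higher with DSF (Prdm1, Bach2, Bcl6, Spib, Ebf1), against 30.1% of the 14275 genes tested, and 3 were lower (Pax5, Ikzf1, Irf8), against 31.6%. Both DSF comparisons use only libraries of a single stimulus, and no unstimulated library enters them. Of the genes called, 49.4% were higher with DSF under LPS and 48.8% under IL-4+anti-CD40, and with total counts as the only scaling these shares were 34.2% and 35.9%. That scaling also moved the median log2 fold change of all genes to -0.21 and -0.16, so changes are given relative to the TMM scale. The summed B cell markers went with DSF from 957 to 1040 FPKM to 728 to 814 FPKM under LPS and from 1000 to 1180 FPKM to 916 to 997 FPKM under IL-4+anti-CD40. Markers of plasmacytoid dendritic cells went from 1.33 to 1.71 FPKM to 3.54 to 6.63 FPKM and from 2 to 3.41 FPKM to 6.43 to 9.28 FPKM under the respective stimuli, and T cell markers from 1.55 to 2.32 FPKM to 4.29 to 6.01 FPKM and from 1.47 to 2.42 FPKM to 3.74 to 4.77 FPKM. Among the T cell markers, Trac reached 5.87 FPKM, with at most 94 counts, and no other exceeded 0.589 FPKM. Among the plasmacytoid dendritic cell markers, Cox6a2 reached 6.88 FPKM, with at most 100 counts, and no other exceeded 1.99 FPKM. The part of these cell types in the changes of the members was not tested.

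**Figure D3:**
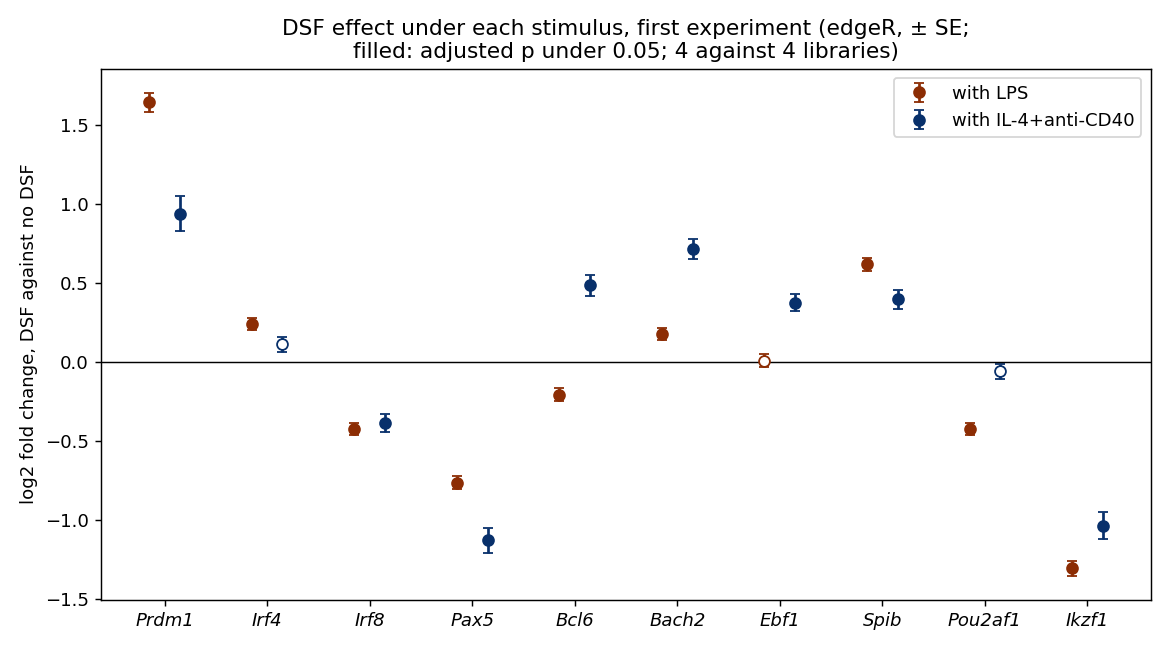
Log2 fold change of each member with DSF against the same stimulus without DSF (vertical axis; edgeR, bars are ± SE, 4 against 4 libraries), with filled points for an adjusted p under 0.05. Prdm1 lies at 1.64 under LPS and at 0.94 under the other stimulus, Pax5 and Ikzf1 lie at -0.77 or lower under both, and Bcl6 lies at -0.21 under LPS and at 0.48 under IL-4+anti-CD40.

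Prdm1 (chr10:44437177-44528501, minus strand) had the largest DSF effect of the 10 genes under LPS. Its level was 3.97, 3.63, 4.54 and 4.25 FPKM with LPS alone and 13.1, 12.2, 12.6 and 12.4 FPKM with LPS and DSF. The groups did not overlap, and the difference was 3.12-fold (log2 fold change 1.64 ± 0.06 SE, adjusted p = 1.25e-17). With IL-4+anti-CD40 alone it was 4.74, 5.21, 6.47 and 6.88 FPKM, and 11.5, 11, 10.8 and 11.8 FPKM once DSF was added. That rise was 1.91-fold (log2 fold change 0.94 ± 0.11 SE, adjusted p = 2.21e-05), at 0.74 against IL-4+anti-CD40 replicates 3 and 4 and 1.18 against replicates 1 and 2. The 2 groups given DSF had the highest means, that under LPS above that under IL-4+anti-CD40, then came IL-4+anti-CD40 alone, LPS alone and unstimulated cells, and only the last neighbours overlapped. Blimp-1 represses Pax5 in plasma cells, and both genes are described with their values next.

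Pax5 (chr4:44524757-44710487, minus strand), the factor that maintains B cell identity, fell with DSF under both stimuli. It stood at 73.3, 73.2, 69.2 and 73.2 FPKM with LPS and at 43.1, 42.8, 41.6 and 40.3 FPKM with LPS and DSF, a 1.7-fold fall (log2 fold change -0.77 ± 0.04 SE, adjusted p = 8.73e-15). It stood at 89.5, 96, 78.5 and 72.5 FPKM with IL-4+anti-CD40 and at 39.5, 39.8, 37.4 and 39.1 FPKM when DSF was added, a 2.19-fold fall (log2 fold change -1.13 ± 0.08 SE, adjusted p = 1.23e-06). All 8 libraries with DSF lay below all 12 libraries without it. The unstimulated libraries read 66.8, 67.7, 140 and 129 FPKM, and replicates 1 and 2 were close to the LPS libraries.

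Ikzf1 (chr11:11685003-11772926, plus strand) encodes Ikaros, a zinc finger factor needed for lymphoid development. Unstimulated cells read 60.1, 59, 102 and 96.9 FPKM, above every stimulated library. With LPS it was 38, 35, 38.2 and 38.7 FPKM and with LPS and DSF 14.3, 15.4, 14.2 and 15.9 FPKM, which is 2.47-fold lower (log2 fold change -1.31 ± 0.05 SE, adjusted p = 2.95e-18). With IL-4+anti-CD40 it was 37.7, 40, 33 and 31.6 FPKM and with DSF added 19.8, 17.9, 16 and 16.6 FPKM, which is 2.05-fold lower (log2 fold change -1.04 ± 0.08 SE, adjusted p = 2.33e-06). Across the 20 libraries, log2 CPM of Ikzf1 and Pax5 had a Pearson r of 0.918, Prdm1 and Pax5 of -0.94 and Prdm1 and Ikzf1 of -0.96, values that describe 5 groups of libraries and not 20 independent points.

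Ebf1 (chr11:44617317-45008091, plus strand), which works with Pax5 in early B cells, behaved otherwise. It was at 21.3, 19.6, 19.4 and 20.4 FPKM with LPS and at 19.7, 20.5, 19.9 and 20.1 FPKM with LPS and DSF, ranges that overlapped. DSF moved it by 0.008 ± 0.04 SE on the log2 scale (adjusted p = 0.869), and with total counts as the only scaling it turned to -0.20 (adjusted p = 9.68e-05). With IL-4+anti-CD40 it was at 12.9, 14.3, 14 and 14.5 FPKM and with DSF added at 17.9, 18.8, 17.6 and 18.9 FPKM, a 1.3-fold rise (adjusted p = 9.01e-05).

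The germinal centre repressor Bcl6 (chr16:23965052-23988852, minus strand) moved in opposite directions with DSF under the 2 stimuli. Under LPS it went from 20.9, 21.1, 22.2 and 22.1 FPKM to 18.7, 18.1, 18.3 and 18.7 FPKM, 1.16-fold lower (log2 fold change -0.21 ± 0.04 SE, adjusted p = 4.91e-05). Under IL-4+anti-CD40 it went from 8.5, 8.48, 8.2 and 9.01 FPKM to 11.2, 13.3, 11.3 and 12.7 FPKM, 1.4-fold higher (log2 fold change 0.48 ± 0.07 SE, adjusted p = 9.63e-05). Neither pair of groups overlapped. DSF thereby narrowed the gap between the stimuli, which was 2.61-fold without DSF and 1.55-fold with it.

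Bach2 (chr4:32238804-32586108, plus strand), a bZIP repressor of Prdm1, followed a related pattern. With IL-4+anti-CD40 it read 8.84, 8.42, 9.24 and 9.49 FPKM and with DSF added 15.2, 15.7, 13.7 and 15.2 FPKM, 1.64-fold higher (log2 fold change 0.71 ± 0.06 SE, adjusted p = 3.32e-06). With LPS it read 31.2, 30, 29.4 and 31.8 FPKM and with DSF added 34.2, 35.1, 33.4 and 33.8 FPKM, a rise of 0.18 ± 0.04 SE on the log2 scale (adjusted p = 0.000322) that turned to -0.03 with total counts alone (adjusted p = 0.481). Bcl6 and Bach2 had a Pearson r of 0.934 over the 20 libraries. Prdm1 and Bach2 were both higher with DSF under each stimulus, with an r of -0.103 over all libraries.

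Spib (chr7:44525993-44532071, minus strand), an Ets factor related to PU.1, rose with DSF under both stimuli. It went from 123, 116, 122 and 130 FPKM to 180, 187, 187 and 190 FPKM under LPS (1.53-fold, adjusted p = 9.7e-13) and from 134, 146, 152 and 160 FPKM to 203, 200, 190 and 195 FPKM under IL-4+anti-CD40 (1.31-fold, adjusted p = 0.000194). Unstimulated libraries read 157, 152, 309 and 297 FPKM, on both sides of the DSF groups. Pou2af1 (chr9:51213708-51240080, plus strand), the octamer coactivator OBF-1, fell from 163, 164, 165 and 168 FPKM to 117, 128, 118 and 121 FPKM under LPS (1.34-fold, adjusted p = 4.04e-10). Under IL-4+anti-CD40 its ranges overlapped, 235 to 252 FPKM without DSF and 230 to 241 FPKM with it (adjusted p = 0.278).

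Whether DSF acted differently under the 2 stimuli was tested as the difference of both DSF effects over the 16 stimulated libraries. The effect differed for 6 of the 10 members, while 14.9% of the 15130 genes tested were called in either direction. It was larger on the positive side with IL-4+anti-CD40 for Bcl6 (difference 0.70 ± 0.08 SE, adjusted p = 4.98e-06), Bach2 (0.54 ± 0.07 SE, adjusted p = 3.93e-05), Pou2af1 (0.37, adjusted p = 0.000196) and Ebf1 (0.37, adjusted p = 0.000866). For Prdm1 the rise was smaller with IL-4+anti-CD40 (difference -0.70 ± 0.13 SE, adjusted p = 0.000993), and for Pax5 the fall was larger (-0.36 ± 0.09 SE, adjusted p = 0.0104). Irf4 (-0.12), Irf8 (0.04), Spib (-0.22, adjusted p = 0.0577) and Ikzf1 (0.27, adjusted p = 0.0877) did not pass the threshold in edgeR. Ikzf1 passed it in DESeq2 (0.30, adjusted p = 0.043), and both Ikzf1 (0.41, adjusted p = 0.00271) and Spib (-0.30, adjusted p = 0.00334) passed it when IL-4+anti-CD40 replicates 1 and 2 were left out. In a single fit over all 20 libraries, where the spread of the unstimulated pairs enters the error, 3 of these differences were called and those of Prdm1, Pax5 and Ebf1 were not (adjusted p = 0.441, 0.565 and 0.0651). The share of all genes called in that fit was not determined.

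Cells given both a stimulus and DSF were also compared with unstimulated cells and with each other. In LPS cultures given DSF, 6 members differed from unstimulated cells, where 71.6% of the 14663 genes tested were called. Ikzf1 was 5.3-fold lower, Pax5 2.4-fold and Pou2af1 1.98-fold lower, and Irf4 was 6.33-fold, Prdm1 4.58-fold and Irf8 1.86-fold higher. In DSF-treated IL-4+anti-CD40 cultures, 7 members differed, where 68.7% of 14678 genes were called, among them Ikzf1 (4.49-fold lower), Prdm1 (4.13-fold higher) and Pax5 (2.57-fold lower). In LPS cultures given DSF, the fold against replicates 1 and 2 and against replicates 3 and 4 was 1.63 and 3.22 lower for Pax5, 4.05 and 6.68 lower for Ikzf1, 2.15 and 1.87 lower for Pou2af1, 4.64 and 9.33 higher for Irf4 and 2.34 and 1.51 higher for Irf8. In DSF-treated IL-4+anti-CD40 cultures it was 1.74 and 3.44 lower for Pax5 and 3.42 and 5.64 lower for Ikzf1. Against either pair, Prdm1 remained called higher in both: 2.81-fold and 11.1-fold for DSF under LPS, and 2.55-fold and 10-fold for DSF under IL-4+anti-CD40, against replicates 1 and 2 and against replicates 3 and 4 in that order. Between the 2 groups given DSF, 9 members differed, where 45.1% of 14352 genes were called. Bach2 was 2.32-fold lower and Pou2af1 1.93-fold higher under IL-4+anti-CD40 than under LPS, and Prdm1 (1.13-fold lower), Pax5 (1.1-fold lower) and Ebf1 (1.11-fold lower) differed least among those called, calls that were lost with total counts as the only scaling (adjusted p = 0.46, 0.984 and 0.668).

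The second experiment gave 1 library per condition, so its ratios carry no replicate check and no test, and the intervals given cover counting error only. They do not cover the choice of scaling or of the minimum mean count. With DSF under LPS, total counts alone took the log2 ratio of Irf4 from -0.58 to -0.89 and that of Pax5 from -0.24 to -0.55. With a mean of at least 50 counts they were -0.43 and -0.09. Prdm1 with total counts alone was at 1.60 under LPS and at 1.10 under IL-4+anti-CD40. Ratios are scaled for library size, so they are not the plain ratios of the counts beside them. With DSF under LPS, Prdm1 went from 266 to 935 counts, a log2 ratio of 1.91 (95% interval 1.72 to 2.12), and under IL-4+anti-CD40 from 407 to 798 counts, a log2 ratio of 1.35 (1.18 to 1.52). Prdm1 was thus higher with DSF in both experiments and under both stimuli. Irf8 fell by 1.24 on the log2 scale under LPS and by 1.06 under IL-4+anti-CD40, larger falls than in the first experiment. With DSF, 2 members (Prdm1, Irf8) changed 2-fold or more under LPS, where 39.8% of 14275 genes did, and 4 members (Bcl6, Prdm1, Bach2, Irf8) under IL-4+anti-CD40, where 42.2% did. In the first experiment, which compared groups of 4 libraries, 18.3% and 14.9% of all genes tested changed more than 2-fold with DSF.

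Of the 9 members called with DSF under LPS in the first experiment, 7 moved the same way in the second, and Irf4 and Bcl6 did not. The same direction did not mean the same size. Pax5 was at -0.24 on the log2 scale, against -0.77 in the first experiment, and Ikzf1 at -0.73, against -1.31. Pou2af1 was at -0.61, against -0.43, and Spib at 0.49, against 0.62. Irf4 read 23486 counts in the LPS library and 14584 in that with DSF, which is -0.58 on the log2 scale (-0.61 to -0.55), against 0.24 in the first experiment. Bcl6 had 2061 and 2036 counts, a log2 ratio of 0.09 whose interval (-0.003 to 0.17) included 0, and -0.22 with total counts alone, a scaling that also took Bach2 from 0.30 to -0.009. Under IL-4+anti-CD40 all 8 called members moved the same way in both experiments. The share of all called genes that kept their direction was not determined, so the counts under either stimulus have no background beside them. Bcl6 rose from 604 to 1635 counts (log2 ratio 1.81), Bach2 from 1910 to 3401 (1.21), Ebf1 from 2778 to 3959 (0.89) and Spib from 7093 to 9760 (0.84), and Pax5 (-0.49) and Ikzf1 (-0.64) fell. Pou2af1, not called under that stimulus in the first experiment, went from 9074 to 4391 counts (log2 ratio -0.67). Irf4, also not called there, had a log2 ratio of -0.33 (interval -0.37 to -0.295), against 0.11 in the first experiment.

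**Figure D4:**
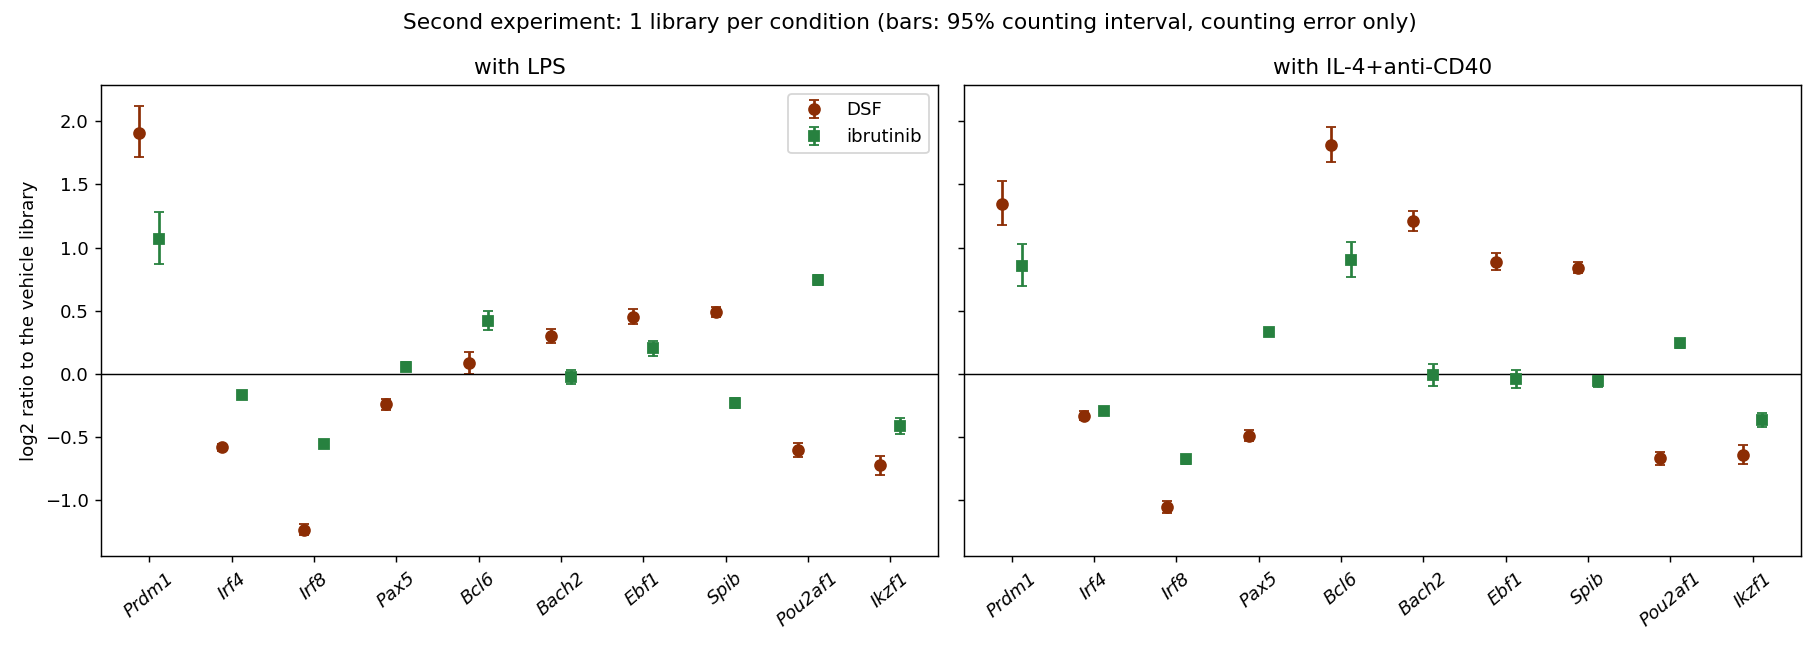
Log2 ratio of the library with DSF (circles) or ibrutinib (squares) to the vehicle library under the same stimulus, second experiment, 1 library per condition; bars are 95% counting intervals. Prdm1 lies at 0.86 or higher in all 4 ratios, and Irf8 at -0.56 or lower in all 4.

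Ibrutinib was set beside DSF at the same dose and time, each against the same vehicle library. Prdm1 was higher with ibrutinib, by a log2 ratio of 1.07 (0.87 to 1.28) under LPS, from 266 to 734 counts, and of 0.86 (0.69 to 1.03) under IL-4+anti-CD40, from 407 to 1045 counts. Irf8 fell by 0.56 and by 0.68 on the log2 scale. Bcl6 had log2 ratios of 0.42 and 0.90, the latter from 604 to 1599 counts. Pou2af1 was lower with DSF and higher with ibrutinib under both stimuli, with ibrutinib log2 ratios of 0.74 and 0.24. Pax5 was lower with DSF under both stimuli. Its ibrutinib log2 ratio was 0.06 under LPS (interval 0.02 to 0.09), where 84.5% of genes had a larger absolute ratio. Under IL-4+anti-CD40 it was 0.33. Bach2 did not move with ibrutinib beyond counting error (-0.02, interval -0.08 to 0.03, under LPS and -0.009, interval -0.1 to 0.08, under IL-4+anti-CD40). With ibrutinib, 1 member (Prdm1) passed 2-fold under LPS, where 5.28% of genes did, and 0 members under IL-4+anti-CD40, where 3.92% did. Since 1 library stands for each condition, the differences between the compounds were not tested.

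Against the unstimulated library of the second experiment, LPS raised Irf4 from 5798 to 23486 counts (log2 ratio 2.26) and Irf8 from 7326 to 15934 (1.36), the 2 members that changed 2-fold or more, where 18.5% of genes did. IL-4+anti-CD40 passed 2-fold for 3 members, where 24.4% of genes did: Irf4 (1.61), Irf8 (1.23) and Bach2 (-1.85, from 8067 to 1910 counts). Prdm1 had 470 counts in the unstimulated library and 3.87 FPKM, and with LPS its log2 ratio was -0.58. Spib, called lower with LPS in the first experiment (-0.89), was higher here (log2 ratio 0.64, interval 0.59 to 0.68), and Ikzf1 was at -0.22 under LPS and -0.18 under the other stimulus, where the first experiment gave -1.07 and -1.14. Pax5 was at 60.3 FPKM in that library, Bach2 at 37.3 FPKM and Ikzf1 at 47 FPKM.

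Other genes of the network were described by 4 lists, whose counts stand against the shares of all genes called: 35.1% higher and 36% lower with DSF under LPS, 30.1% and 31.6% with DSF under IL-4+anti-CD40, 29.6% and 33.3% for LPS alone, and 30.4% and 32.1% for IL-4+anti-CD40 alone. Of 14 partners and cofactors of the members, LPS alone raised 5 and lowered 4 and IL-4+anti-CD40 alone raised 4 and lowered 5. DSF under LPS raised 7 and lowered 6, with a median log2 fold change of 0.08 against 0 over all genes tested, and under IL-4+anti-CD40 raised 6 and lowered 6 (median -0.11 against -0.02). Bach1, the paralogue of Bach2 that represses heme oxygenase, rose 5.52-fold under LPS (log2 fold change 2.46 ± 0.04 SE) and 3.78-fold under IL-4+anti-CD40, the latter being 2.78-fold without IL-4+anti-CD40 replicates 1 and 2 and 6-fold without replicates 3 and 4. Mafg, a small Maf protein with which Bach factors pair, rose 4.58-fold and 2.7-fold. Pou2f2, which encodes the octamer factor Oct-2 and is the partner of Pou2af1, fell 2.29-fold and 1.74-fold. Ikzf3, which encodes the Ikaros relative Aiolos, fell 1.89-fold and 1.59-fold. With LPS alone, Batf, which binds DNA together with Irf4 and Irf8, rose 13.7-fold and Mafk 3.98-fold, while Ets1 fell 3.74-fold. With IL-4+anti-CD40 alone, Batf rose 4.08-fold and Mafg 3.2-fold and Ets1 fell 5.13-fold and Ikzf3 2.71-fold. Against either pair of unstimulated libraries Batf stayed at least 12.2-fold and 3.57-fold higher, and Mafg with IL-4+anti-CD40 was 2.22-fold to 5.55-fold higher.

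**Figure D5:**
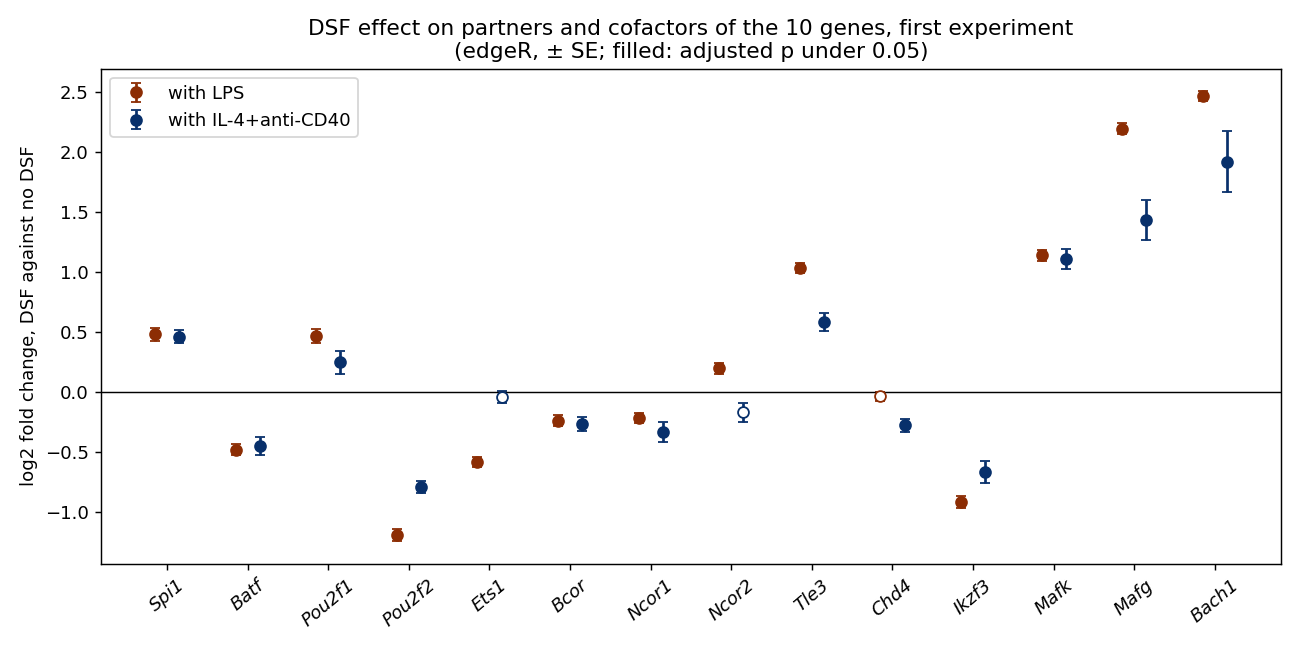
Log2 fold change with DSF (vertical axis; edgeR, ± SE, filled points for an adjusted p under 0.05) of the 14 partners and cofactors of the members under each stimulus, first experiment. Bach1, Mafg and Mafk lie above 1 under both stimuli, and Pou2f2 and Ikzf3 lie at -0.67 or lower under both.

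Of 20 other B lineage transcription factors, DSF raised 7 and lowered 10 under LPS (median -0.07) and raised 8 and lowered 10 under IL-4+anti-CD40 (median -0.10). Bcl11a, needed for early B cell development, fell 4.2-fold and 4.11-fold, and Mef2c fell 2.99-fold and 3.82-fold. Bhlhe41, a basic helix-loop-helix repressor, rose 4.75-fold and 3.36-fold, and Runx1 2.08-fold and 2.18-fold. LPS alone raised 7 and lowered 7 of them, and IL-4+anti-CD40 alone raised 3 and lowered 9. With IL-4+anti-CD40, 6 were raised without unstimulated replicates 3 and 4 and 7 without replicates 1 and 2. Of all genes, 60.1% and 69.8% were called in either direction in those fits. Nfil3, which acts in class switching to IgE, rose 7.92-fold with LPS and 46.4-fold under the other stimulus. The latter value was 31-fold against unstimulated replicates 1 and 2 and 89.5-fold against replicates 3 and 4. Id3, an inhibitor of E proteins, fell 5.14-fold with LPS and 8.35-fold under IL-4+anti-CD40, and Klf2, a quiescence factor, fell 6.62-fold and 5.66-fold. Zbtb32 rose 5.74-fold with LPS, and Lef1 rose 1.84-fold with IL-4+anti-CD40, a call lost when replicates 1 and 2 of IL-4+anti-CD40 were left out (adjusted p = 0.164).

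Of 16 B cell identity genes, 11 were lower with either stimulus, with medians of -1.11 (LPS) and -0.96 (IL-4+anti-CD40) against -0.05 and -0.04 over all genes tested. Leaving out unstimulated replicates 3 and 4 left 10 lower under each stimulus, with medians of -0.50 and -0.43 and 6 and 3 higher, and leaving out replicates 1 and 2 left 14 and 15 lower. Of all genes, 67.9% and 60.1% were called in either direction in the former fits and 75.6% and 69.8% in the latter. Leaving out either pair of IL-4+anti-CD40 libraries left 7 lower under that stimulus. Of all genes, 46.2% were then called in either direction without replicates 1 and 2 and 50.1% without replicates 3 and 4. With all libraries, 30.4% were called higher and 32.1% lower. Ralgps2 fell 5.13-fold with LPS and 9.67-fold under IL-4+anti-CD40, Vpreb3 fell 5.27-fold with LPS and Cd55 fell 5.33-fold with IL-4+anti-CD40. Fcer2a, which encodes the low-affinity IgE receptor CD23, rose 4.65-fold with IL-4+anti-CD40, and Cd72 rose 1.36-fold with LPS. DSF lowered 10 and raised 4 of the list under LPS and lowered 7 and raised 8 under IL-4+anti-CD40. Without IL-4+anti-CD40 replicates 1 and 2, 5 were raised, where 51.2% of all genes were called in either direction. Bank1 fell 2.05-fold and Cd72 1.62-fold under LPS, Cr2 fell 2.97-fold and Fcer2a 2.6-fold under IL-4+anti-CD40, and Blk, a Src family kinase, rose 2.45-fold and 2.49-fold under the respective stimuli. Cd55 rose 1.62-fold under LPS and 2.43-fold under IL-4+anti-CD40.

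Of 14 genes of the plasma cell programme, 13 were tested, and Tnfrsf17 had too few counts. DSF under LPS raised 10 and lowered 1 (median 0.52 against 0), and under IL-4+anti-CD40 it raised 5 and lowered 0 (median 0.27 against -0.02), 5 of 13 being near the 30.1% of all genes called higher. Ell2, an elongation factor that favours secretory immunoglobulin mRNA, rose 2.65-fold and 2.95-fold, Tent5c, a poly(A) polymerase, rose 2.27-fold under LPS, and Edem1 rose 1.76-fold under IL-4+anti-CD40. Sdc1 was the gene lowered under LPS (1.67-fold). Xbp1, the factor of the secretory programme, rose 1.69-fold with DSF under LPS and had a log2 fold change of -0.05 under IL-4+anti-CD40 (adjusted p = 0.363); this gene was named after its values were seen. The summed plasma cell markers, 4 genes of which Jchain and Slamf7 were the most abundant, went from 121 to 128 FPKM to 156 to 173 FPKM with DSF under LPS and from 92.4 to 95.2 FPKM to 108 to 113 FPKM with DSF under IL-4+anti-CD40. With LPS alone, 3 genes of the list were higher, Slamf7 (3.74-fold) and Tent5c (3.15-fold) the most, and 8 were lower, Sdc1 (6.29-fold) and Creb3l2 (4.5-fold) the most. With IL-4+anti-CD40 alone, 5 were higher, Tent5c (4.18-fold) and Slamf7 (2.56-fold) the most, and 6 were lower, Sdc1 (9.36-fold) and Creb3l2 (3.13-fold) the most. The named changes of the 4 lists with either stimulus alone kept their direction and call against either pair of unstimulated libraries, while some sizes moved by more than 1.5 times. Without replicates 1 and 2, the fold with LPS was 15.5 for Zbtb32, 15.4 for Nfil3, 6.12 for Tent5c and 3.16 for Sdc1, and with IL-4+anti-CD40 it was 8.04 for Tent5c, 4.73 for Sdc1 and 2.79 for Lef1. Without replicates 3 and 4, it was 3.54 for Zbtb32, 4.08 for Klf2, 2.76 for Vpreb3 and 3.25 for Ralgps2 under LPS, and 3.56 for Klf2, 6.24 for Ralgps2, 8.53 for Fcer2a and 14.2 for Sdc1 with IL-4+anti-CD40. The median of the plasma cell list with IL-4+anti-CD40 went from -0.82 to 0.05 without replicates 3 and 4.

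The genes whose log2 CPM over the 20 libraries of the first experiment was most like that of each member were sought among 10042 genes whose mean was 50 counts or more. Prdm1 was most like E330009J07Rik (Pearson r = 0.989) and Txnrd1 (0.987), Irf4 like Kdm2b (0.993), D16Ertd472e (0.988) and Stat6 (0.988), and Irf8 like Zfp296 (0.971), Mob3c (0.958) and Dennd4b (0.956). Pax5 was most like Ppp3cc (0.981), Prdm11 (0.973) and Wdfy4 (0.959), Ikzf1 like Cyb561a3 (0.991), Slc25a4 (0.991) and R3hdm4 (0.99), and Ebf1 like Atp8a1 (0.968), Maml2 (0.967) and Cobll1 (0.967). Bcl6 was most like Actn1 (0.977), A530032D15Rik (0.961) and Lrp10 (0.957), Bach2 like Scarb2 (0.992), Lrp10 (0.987) and Pou6f1 (0.972), so that Lrp10 stood in both lists. Spib was most like Ghdc (0.958), Pou2f1 (0.943) and Limd1 (0.941), and Pou2af1 like Ccdc47 (0.97), Sirpa (0.965) and Icmt (0.953). These libraries share 5 groups, so the values describe group means and have no p.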

How the data were processed

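The 27 RNA-seq libraries came from mouse splenic B cells. The authors mapped reads to mm10 with HISAT2 2.0.5 and counted them per gene with featureCounts 1.5.0-p3, per the labels, and deposited raw counts. They also deposited FPKM, whose divisor per library was 0.869 to 1.18 of the total counts in the first experiment and lay within 0.958 to 1.05 of that of TMM. The annotation release and the strand setting are not given in the sources used here. In all, 13 annotated genes overlap a member on the same or the opposite strand, none had more than 162 counts in a library, and without the strand setting reads of opposite genes cannot be told apart.

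Counts of the first experiment were tested with edgeR 4.0.16 in R 4.3.3 (quasi-likelihood, TMM, filterByExpr, Benjamini-Hochberg over all genes tested, threshold 0.05), 8 libraries per comparison and 16 for the difference between the DSF effects. The second experiment was compared as log2 ratios (TMM, prior count 2, mean of at least 10 counts), with 95% conditional binomial intervals. Alternatives were DESeq2 1.42.0, DESeq2's size factors, total counts, all genes with any count, all 20 libraries in one fit, a replicate block and leaving out each library. Leaving out each pair of unstimulated or IL-4+anti-CD40 libraries was added after seeing the data. The fit of DSF under LPS alone was tried on simulated data with 200 planted changes among 13939 genes. There edgeR found 176 with 9 false calls and DESeq2 found 174 with 5. The other comparisons, and the split of the unstimulated or IL-4+anti-CD40 libraries, were not simulated. RefSeq promoter windows (GRCm38.p6) were matched by symbol for all 10 members.

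The members and the 4 gene lists were chosen with earlier results of these data known. Named were the 10 members, at most 2 called genes per list, direction and comparison with the largest fold change, and the 3 genes most correlated with each member (prior count 2, mean of at least 50 counts). Other genes named were chosen after their values were seen. Some genes that this rule or the marker lists would name are not reported here.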

Additional observations from a re-analysis of the deposited data

Results flagged for a closer look

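Among the 50 sets of 4 libraries, 1 per member and group, 2 held a library far from the other 3 by Dixon's criterion, which chance alone flags in about 1 of 20 sets. Pax5 in LPS replicate 3 was at 69.2 FPKM, where the other LPS libraries were at 73.2 to 73.3 FPKM. Pou2af1 in replicate 2 of IL-4+anti-CD40 with DSF was at 230 FPKM, where the others were at 240 to 241 FPKM.

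The DSF effect differed between the stimuli by the test of the difference for 6 members. The effect under IL-4+anti-CD40 minus that under LPS was -0.70 for Prdm1, -0.36 for Pax5, 0.70 for Bcl6, 0.54 for Bach2, 0.37 for Ebf1 and 0.37 for Pou2af1, on the log2 scale.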

How the results depend on the processing

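The unstimulated libraries mattered most. Without replicates 1 and 2, 10 members were called with LPS and 10 with LPS and DSF, against 6 in each with all libraries, while 75.6% and 79.7% of all genes were called there, and Bach2 with LPS turned to 0.281. Without replicates 3 and 4, Pax5 turned to 0.131 with LPS and to 0.329 with IL-4+anti-CD40, Bach2 to -0.292 and Spib to 0.242 for DSF under LPS against unstimulated cells, and Spib to 0.34 for DSF under IL-4+anti-CD40. With total counts alone, Bach2 (-0.032) and Ebf1 (-0.2) reversed for DSF under LPS. A single fit over all 20 libraries called 5 members between the 2 DSF groups, against 9, and 3 for the difference between the DSF effects, against 6. The share of all genes called in that fit was not determined. In that fit Irf4 (0.223, adjusted p = 0.251) and Bach2 (0.159, adjusted p = 0.266) lost their calls for DSF under LPS. The cause was not tested. In the second experiment, total counts alone gave 3 members past 2-fold with DSF under LPS, against 2, and 3 under IL-4+anti-CD40, against 4. With a mean of at least 50 counts, Irf8 was at -0.91 and Ebf1 at 1.04 with DSF under IL-4+anti-CD40. The shares of all genes past 2-fold with these choices were not determined.

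Leaving out each library in turn gave 6 to 8 called members for LPS, IL-4+anti-CD40, and LPS with DSF against unstimulated cells. The ranges were 6 to 7 for IL-4+anti-CD40 with DSF against unstimulated cells, 8 to 9 between the stimuli, 9 to 9 for DSF under LPS, 8 to 9 for DSF under IL-4+anti-CD40, 7 to 9 between the 2 DSF groups and 6 to 7 for the difference. The shares of all genes called in these fits were not determined. Ebf1 in DSF-treated IL-4+anti-CD40 cells against unstimulated cells lost its call without any of 6 libraries (adjusted p = 0.0526 to 0.0707). DESeq2 and its size factors ended no call of a member, and DESeq2 added 7, among them Irf4 for DSF under IL-4+anti-CD40 (adjusted p = 0.012).

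Same-numbered libraries did not deviate together (correlations of -0.056 to 0.169), so the numbers were not taken as pairs. A replicate block changed 1 call, Irf8 for IL-4+anti-CD40 with DSF against unstimulated cells (0.435, adjusted p = 0.0381), which took that count from 7 to 8.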
